A study of Homo sapiens with 9 samples.

Results

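LFNG, MFNG, RFNG, POFUT1, POGLUT1 and EOGT encode enzymes that place or extend sugars on the extracellular part of Notch receptors. Called intervals of RBPJ binding and of open chromatin were collected around these 6 genes by position alone. An interval was included if at least 1 bp lay in the gene span or within 10 kb on either side, with gene spans from RefSeq on GRCh38 (the files use hg38). The rule took 60 of the 174116 intervals in 6 lists, and no measured value entered it. All 6 genes were found in the annotation, and each had an interval in at least 3 of the 6 lists.

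Notch receptors carry repeats related to epidermal growth factor, and several of these repeats are glycosylated. POFUT1 adds O-fucose, and the fringe enzymes LFNG (lunatic), MFNG (manic) and RFNG (radical) extend that fucose with N-acetylglucosamine, which alters how the receptor responds to Delta and Jagged ligands. POGLUT1 adds O-glucose to other positions of the repeats, and EOGT adds O-linked N-acetylglucosamine. When Notch is cleaved, its intracellular domain joins RBPJ, the DNA-binding factor of the pathway, at target genes. LFNG is known as such a target in the segmenting vertebrate embryo.

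The libraries came from human cell lines. HEK293T, derived from embryonic kidney, gave 7 CUT&Tag libraries, in which an antibody brings a transposase to the DNA that a protein occupies. 4 of these used an RBPJ antibody, and the 3 with control IgG were not analysed here. Of the RBPJ libraries, the first was wild type and the second FBXO42 knockout, and those titled RBPJ and RBPJK175R both had the genotype FBXO42 knockout. FBXO42 is a substrate receptor of a ubiquitin ligase. RBPJK175R names a lysine-to-arginine change in RBPJ. The sources used here do not say how the cells came to carry these forms. ATAC-seq, which tags open chromatin with free transposase, was done in 1 FBXO42 wild-type and 1 FBXO42 knockout library labelled Jurkat, a T cell leukaemia line. The labels describe knockout with lentiviral CRISPR constructs, and the sources used here do not say whether clones or pools were taken. Each group had 1 library. No test between conditions was therefore possible, every difference below is between 2 libraries, and all intervals printed with values cover counting error only.

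4 stretches of sequence upstream of the transcription starts are shown because the calls below differ between them. They come from the RefSeq promoter table for GRCh38.p14, which held 4 of the 6 genes, and run 5′ to 3′ on the strand of the gene. Capitals mark TGGGAA, the core of the RBPJ motif, or its reverse complement TTCCCA. The first LFNG start, at chr7:2512279-2512528, is shown because no list had an interval on it. The second LFNG start, at chr7:2517613-2517862, held an interval only in the FBXO42 knockout list and in the library titled RBPJ. The gap between the divergent genes PLAGL2 and POFUT1, at chr20:32207744-32207879, lay whole inside RBPJ intervals of 3 lists. The POGLUT1 start, at chr3:119468713-119468962, belongs to the 1 gene with a start interval in all 6 lists. Of the 250 bases shown, FBXO42 knockout RBPJ covered 234, the library titled RBPJ 250 and wild-type ATAC 155. The intervals of wild-type RBPJ, of the library titled RBPJK175R and of knockout ATAC covered 0.
LFNG first start: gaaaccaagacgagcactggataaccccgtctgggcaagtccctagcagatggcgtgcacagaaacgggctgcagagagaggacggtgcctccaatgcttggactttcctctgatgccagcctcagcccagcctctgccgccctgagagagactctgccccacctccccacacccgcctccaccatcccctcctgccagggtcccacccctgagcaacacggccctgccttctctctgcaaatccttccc
LFNG second start: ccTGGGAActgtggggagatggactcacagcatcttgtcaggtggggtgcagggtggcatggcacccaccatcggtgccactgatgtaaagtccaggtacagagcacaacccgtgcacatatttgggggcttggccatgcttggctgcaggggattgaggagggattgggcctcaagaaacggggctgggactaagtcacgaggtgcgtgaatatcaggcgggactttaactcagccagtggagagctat
PLAGL2 to POFUT1 gap: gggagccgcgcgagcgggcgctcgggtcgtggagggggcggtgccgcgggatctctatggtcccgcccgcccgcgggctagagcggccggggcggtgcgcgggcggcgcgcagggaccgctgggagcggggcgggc
POGLUT1 start: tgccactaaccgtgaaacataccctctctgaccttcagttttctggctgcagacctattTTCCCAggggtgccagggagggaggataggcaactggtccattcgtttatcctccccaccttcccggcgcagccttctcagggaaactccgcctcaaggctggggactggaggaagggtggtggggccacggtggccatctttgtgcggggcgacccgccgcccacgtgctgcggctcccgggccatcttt
The LFNG match lay 248 bases before the second start, at positions 2517615 to 2517620, and ended before the called interval of either list began. The POGLUT1 match was on the opposite strand 191 bases before the start, at 119468772 to 119468777. It lay 351 bp from the RBPJ summit in wild type, 42 bp in knockout, 620 bp in the library titled RBPJ and 678 bp in the library titled RBPJK175R, the last 3 all FBXO42 knockout. The POFUT1 gap, the first LFNG start and the RFNG start held no TGGGAA in the upstream 250 bases. TGGGAA on either strand was found in 20.1% of 22199 promoters of 250 bases, GTGGGAA in 5.27% and CGTGGGAA in 0.842%, and neither longer form was present upstream of these genes. GC made up 81.6% of the 250 bases before POFUT1, above 97.5% of the promoters, against a median of 62.0% over all of them. RFNG had 77.2%, the first LFNG start 62.8%, POGLUT1 62.0% and the second LFNG start 57.2%.

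The RBPJ lists of wild type, of FBXO42 knockout and of the library titled RBPJ each had an interval in the windows of all 6 genes, while the library titled RBPJK175R had one at 3. The background was 71.7%, 60.1%, 58.5% and 56.6% of 20037 protein-coding genes, in that order. In ATAC, 4 genes had one in wild type and 2 in knockout, where the background was 76.6% and 64.2%. By number, 12 of 42656 wild-type RBPJ intervals, 17 of 36877 knockout intervals, 15 of 19913 of the library titled RBPJ and 3 of 22691 of the library titled RBPJK175R lay in the windows, with 8 of 31886 and 5 of 20093 for wild-type and knockout ATAC. RFNG held 14 of the 60, the most, although its span of 3910 bp was the shortest of the 6. POGLUT1 held 13, LFNG and MFNG 11 each, EOGT 6 and POFUT1 5.

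Most of these intervals did not mark the start of the gene whose window they fell in. 19 of the 60 came within 1 kb of a start of that gene, 9 within 1 kb of a neighbour's start, 11 elsewhere inside the gene and 21 in the flanks. The same split is not given here for the windows of other genes, so it is not shown to be particular to these 6. For MFNG and EOGT, whose strand the tables do not give, both gene ends stood in for the start, as they did for 4195 of the 20037 genes in the background. A start interval was called for 3 of the 6 genes in wild-type RBPJ, 5 in FBXO42 knockout, 3 in the library titled RBPJ and 2 in the library titled RBPJK175R. The background by the same rule was 54.0%, 39.5%, 37.8% and 28.5% of coding genes. In ATAC the numbers were 3 in wild type and 2 in knockout, beside 56.9% and 43.3%. The FBXO42 knockout count was the farthest from its background, and it was 2 when only intervals with a −log10 q (the false discovery rate of a peak, so that higher is stricter) of at least 5 were kept. The share of coding genes at that threshold is not given here, so the count of 2 cannot be set against a background.

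POFUT1, the O-fucosyltransferase on which the fringe enzymes depend, had the highest fold among the member starts in each of the 4 RBPJ lists. A start interval was called in all 4 for POFUT1 and POGLUT1, against 20.7% of coding genes. Its gene runs from 32207880 to 32238658 on chromosome 20, and 136 bp separate it from PLAGL2, a zinc finger gene read in the other direction, so an interval there cannot be given to either gene. The start interval was 32207080 to 32208701 in wild type, with 57 reads at the summit and a fold of 7.20 over the local background. The knockout interval, 32207533 to 32208621, had 31 reads and a fold of 5.20. In the library titled RBPJ the interval 32207116 to 32208440 had 20 reads and a fold of 6.94. These 3 intervals all covered the gap between both genes. The library titled RBPJK175R had its interval beside the gap, at 32206392 to 32207101, with 10 reads, a fold of 4.65 and a summit 1278 bp from the POFUT1 start. It overlapped the wild-type interval alone.

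By fold, the POFUT1 interval belonged to the strongest 15.9% of intervals in wild type, the strongest 19.2% of the knockout list and the strongest 23.02% of the library titled RBPJ. It stood at 54.6% in the library titled RBPJK175R, below the middle of that list. No ATAC interval lay anywhere in the POFUT1 window in either library. A start interval in all 4 RBPJ lists with none in ATAC was seen at 0.799% of coding genes, and POFUT1 was 1 of them, although RBPJ and ATAC were measured in different cell lines. The library titled RBPJ had 1 further interval there, at 32202110 to 32202635, with 12 reads.

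LFNG, the fringe known as a Notch target, had its start interval at the second of 2 annotated starts, 2517863 on chromosome 7, inside the gene span of 2512529 to 2529177. FBXO42 knockout had the interval 2517716 to 2518408 there, with 19 reads, a fold of 4.33 and a −log10 q of 5.90. The library titled RBPJ had 2517716 to 2518105, with 22 reads, a fold of 5.14 and a −log10 q of 6.35. Both began on the same base, and their summits lay 244 bp and 11 bp from the start. Wild type and the library titled RBPJK175R had no interval within 1 kb of it. The wild-type list did have 2519450 to 2519780 inside the gene, with 14 reads and a fold of 3.11, so that LFNG counts in both lists when the distance is widened to 2 kb.

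Elsewhere around LFNG the lists mostly picked separate places. Wild type had 2 intervals beyond the upper end of the gene, of which 2531005 to 2531554, with 25 reads and a fold of 5.39, had the highest fold of its list in the LFNG window. Its other interval, at 2537978 to 2538710, lay inside the next gene, BRAT1. The library titled RBPJ had 3 flank intervals with 11 to 14 reads and none of them was shared. Inside the gene, 2524466 to 2525080 in knockout and 2525060 to 2525451 in the library titled RBPJ overlapped at their edges, with 16 and 17 reads. The library titled RBPJK175R had no interval in the window, and its nearest lay 18967 bp outside. ATAC had 1 interval, at 2513761 to 2514161 in wild type, with 6 reads and a fold of 3.51, which lay over 1 kb from either start and overlapped no RBPJ interval.

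MFNG, at 37469063 to 37486384 on chromosome 22, showed RBPJ intervals near its upper end in FBXO42 knockout. That list had 37485654 to 37486316 with 19 reads, 37486753 to 37487485 with 18 and, further out, 37488622 to 37491167 with 24. Their folds were all 3.14, and at least 79.6% of the list had a fold as high or higher. The last of these was 2546 bp wide and was overlapped by an interval of the library titled RBPJ, at 37490464 to 37491222, which had 21 reads and a fold of 6.01. Wild type had a single interval in the window, 37492989 to 37493440 inside CARD10, with 19 reads and a fold of 2.29, and 99.6% of its list had a fold at least as high. The library titled RBPJ had an interval at nearly the same place, 37492936 to 37493472, with 15 reads and a fold of 4.87. Wild-type ATAC also had one there, at 37492729 to 37493271, with 13 reads and a fold of 5.96. A further wild-type ATAC interval, 37486222 to 37486633, lay over the upper end of MFNG with 9 reads and a fold of 3.84, and its summit was 133 bp from that end. Knockout ATAC had no MFNG interval. The library titled RBPJK175R had 37459107 to 37459692 alone, with 6 reads, near the lower edge of the window.

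RFNG, at 82047902 to 82051811 on chromosome 17 and read on the minus strand, had no start interval in any of the 6 lists. 38.7% of coding genes had none in the 4 RBPJ lists. The highest fold of all 60 intervals was in its window and belonged to other genes. This interval, 82034223 to 82038471 in wild-type RBPJ, had 260 reads and a fold of 42.7 and lay over the starts of DCXR and DCXR-DT. RAC3 was also counted by the 1 kb rule, which takes either gene end where no start is annotated, so a RAC3 start there is not shown. The wild-type interval was in the strongest 0.734% of its list. In FBXO42 knockout the interval was 82036812 to 82038258 with 100 reads and a fold of 10.96, and in the library titled RBPJ it was 82036828 to 82038228 with 261 reads and a fold of 11.8.

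These intervals entered the RFNG window by 570, 357 and 327 bp. The corresponding intervals of the library titled RBPJK175R, with 98 reads, and of wild-type and knockout ATAC, with 42 and 26 reads, ended 72, 98 and 113 bp short of it and were left out by the rule. The next interval outside any window lay 570 bp beyond the LFNG window, in the library titled RBPJ. What touched RFNG itself was weaker. Knockout RBPJ had 82047016 to 82048874, over the 3′ end, with 26 reads and a fold of 5.10, and 82049387 to 82049915, with 17 reads, a fold of 2.53 and a summit 1951 bp from the start. The library titled RBPJ had 82047948 to 82049058 with 15 reads and a fold of 3.70, and it overlapped the first of these. Upstream of RFNG, inside the overlapping gene GPS1, knockout had 82053402 to 82054206 with 24 reads and a fold of 4.73.

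POGLUT1, the O-glucosyltransferase, had a start interval in all 6 lists, as did 17.4% of coding genes. The gene runs from 119468963 to 119494708 on chromosome 3. RBPJ reads at the start were 26 in wild type, 14 in FBXO42 knockout, 22 in the library titled RBPJ and 9 in the library titled RBPJK175R, with folds of 4.95, 3.13, 3.14 and 4.04. These were modest values within each list: the wild-type interval was in the strongest 33.8%, and the interval of the library titled RBPJ had 94.03% of its list at a fold at least as high. ATAC reads were 24 in wild type and 9 in knockout, with folds of 9.76 and 6.32, in the strongest 7.11% and 31.5% of their lists. The neighbours TMEM39A and TIMMDC1 had open starts in both ATAC libraries too. RBPJ was called at the TMEM39A start in wild type with 45 reads, and at the TIMMDC1 start in the library titled RBPJ with 15. Knockout ATAC had 1 interval inside POGLUT1, at 119488616 to 119488961, that rested on 3 reads.

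EOGT, the O-GlcNAc transferase of these repeats, runs from 68975225 to 69013684 on chromosome 3, and all of its start intervals lay at the upper end, where the start of the noncoding gene EOGT-DT also lies. Wild-type RBPJ had 69013245 to 69013713 with 20 reads and a fold of 3.55, and its summit was 26 bp from that end. FBXO42 knockout had 69012451 to 69012980 with 10 reads and a fold of 3.38. These did not overlap, so the gene counted as called in both lists without a shared interval. The library titled RBPJ had 69010977 to 69011354 inside the gene, with 13 reads, and the library titled RBPJK175R had nothing in the window. The ATAC intervals coincided: 69013420 to 69013954 in wild type with 28 reads and a fold of 9.55, and 69013422 to 69013963 in knockout with 18 reads and a fold of 10.6. They were in the strongest 8.04% and 2.19% of their lists.

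Depth differed between the libraries and was read from each list, as the lowest local background found in it, which is the pileup that even coverage would give. It was 1.77 reads in wild-type RBPJ, 1.63 in knockout, 1.26 in the library titled RBPJ, 0.675 in the library titled RBPJK175R, 0.417 in wild-type ATAC and 0.184 in knockout ATAC. The second library of each comparison thus had 92.1%, 53.4% and 44.2% of the depth of the first, and an interval missing from a shallower list is not shown to be absent. Divided by this expectation, the POFUT1 summit had 32.2 in wild type, 19.0 in FBXO42 knockout and 15.8 in the library titled RBPJ. The library titled RBPJK175R had 14.8 at a different place, with its summit 1278 bp from the POFUT1 start. POGLUT1 had 14.7, 8.59, 17.4 and 13.3 in the same order. POFUT1 stood above POGLUT1 in wild type, with 95% Poisson intervals of 24.4 to 41.7 and 9.59 to 21.5, and the intervals of the 2 genes overlapped in the other 3 lists.

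The first comparison, of RBPJ in FBXO42 wild type and knockout, asks how loss of FBXO42 bears on where RBPJ is found. POFUT1, POGLUT1 and EOGT had a start interval in both lists, against 35.7% of coding genes. LFNG and MFNG had one in knockout alone, a pattern of 3.80% of genes, and none of the 6 had one in wild type alone, the pattern of 18.3%. Which genes made up the knockout-only group depended on the definition: MFNG and RFNG within 2 kb of the start, and LFNG alone at a −log10 q of at least 5, where POGLUT1 turned wild-type only. The shares of coding genes above hold for the 1 kb rule without a q threshold and not for these definitions. Among intervals, 5 of the 12 in wild type were overlapped in knockout, which is 41.7% (Clopper-Pearson 95% interval 15.2 to 72.3), and the share over all wild-type intervals was 32.1%. In the other direction 5 of 17 were overlapped, against 38.1%. The overlapped intervals lay at the POFUT1 and POGLUT1 starts and, all in the RFNG window, at the DCXR starts and nearby flank sites. Intervals of the same window are not independent, and the binomial intervals of shares here and below do not allow for that.

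Both starts with overlapping intervals had fewer reads in knockout, and at POFUT1 the interval of the ratio lay below 1. The depth-scaled ratio of knockout to wild type was 0.591 (95% interval 0.369 to 0.930) at POFUT1, where the reads were 31 and 57, and 0.585 (0.282 to 1.16) at POGLUT1, where they were 14 and 26. The median over 5698 shared starts of coding genes was 0.578, with quartiles of 0.462 and 0.731, so both genes lay in the middle of all shared starts. The DCXR starts beside RFNG had a ratio of 0.418 (0.328 to 0.528), lower than at all but 16.2% of shared starts. A ratio past 2-fold lower was seen at 33.8% of shared starts and past 2-fold higher at 0.333%. The 2 flank sites shared near RFNG had ratios of 1.16 (0.524 to 2.60) and 1.30 (0.690 to 2.49), above 95.8% and 97.4% of shared starts. These ranks set flank intervals against start intervals, and no gain in knockout can be read from them. The paired summits lay 745 and 300 bp apart at the flank sites and 398 bp apart at POGLUT1. These 3 ratios therefore compare reads at different positions. Scaling to the median of shared starts in place of depth multiplies every ratio of this comparison by 1.73. POFUT1 then had 1.02 (0.638 to 1.61), POGLUT1 1.01 (0.489 to 2.01), the DCXR starts 0.723 (0.568 to 0.914) and the flank sites 2.01 (0.906 to 4.50) and 2.26 (1.19 to 4.31). Whether these ratios lie above or below 1 therefore depended on the scaling at POFUT1 and POGLUT1, and the second flank interval excluded 1 only under the median scaling.

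The second comparison set the library titled RBPJ against the library titled RBPJK175R, both in FBXO42 knockout cells. POFUT1 and POGLUT1 had a start interval in both, against 24.2% of genes. LFNG had one in the library titled RBPJ alone, against 13.6%, and no gene had one in the library titled RBPJK175R alone, against 4.21%. Only 2 of the 15 intervals of the library titled RBPJ were overlapped by the other, at the POGLUT1 start and at the DCXR starts, which is 13.3% (1.66 to 40.5). The share over all intervals of that list was 43.8%. With only peaks of a −log10 q of 5 or more it was 1 of 4 (0.631 to 80.6%), beside 47.9% over the list. The 15 intervals lie in few neighbouring stretches and the second library had 53.4% of the depth of the first, and the part of either in this share was not tested. 1 of 3 intervals was overlapped in the other direction, against 39.7%. The POFUT1 intervals of the 2 libraries did not overlap. At POGLUT1 the depth-scaled ratio of the library titled RBPJK175R to the library titled RBPJ was 0.766 (0.311 to 1.73), which does not differ from 1 beyond counting error, and the median over 3933 shared starts was 0.936. Ratios past 2-fold lower and higher were seen at 4.81% and 1.17% of those.

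The knockout list and the library titled RBPJ, both with the genotype FBXO42 knockout, shared 7 of 17 knockout intervals and 7 of 15 of the library titled RBPJ. The shares over all intervals of these lists were 26.5% and 49.6%. Of the 12 knockout intervals that no wild-type interval overlapped, 4 were overlapped in the library titled RBPJ, beside 8.58% of 22828 such intervals over the genome. The 4 were the LFNG second start, the LFNG site inside the gene, the flank of MFNG and the 3′ end of RFNG. These overlaps need not be the same binding place. Summits in knockout and in the library titled RBPJ were at 37488855 and 37490800 in the MFNG flank. They were at 82047953 and 82048978 at the RFNG 3′ end, and the LFNG intervals inside the gene met only at their edges. The rule of 50% of the shorter interval was not applied to this pair of lists. The 12 comprised 2 at LFNG, 4 at MFNG, 5 at RFNG and 1 at EOGT. Only 4 of the 15 intervals of the library titled RBPJ were overlapped by wild type, against 54.7% over the list. Merged over the 4 RBPJ lists, the windows held 32 sites, of which 22 were called in 1 list, 7 in 2, none in 3 and 3 in all 4. The last were the POFUT1, POGLUT1 and DCXR starts. Merging joined any intervals linked by overlap, so the lists of a site need not all overlap each other. At POFUT1 the interval of the library titled RBPJK175R overlapped wild type alone. At POGLUT1 it did not overlap the FBXO42 knockout interval. Sites called in at least 2 lists made up 31.3%, close to the 25.9% of 81315 merged sites over the genome.

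The third comparison, of ATAC in FBXO42 wild type and knockout, asks how open chromatin differs with FBXO42. POGLUT1 and EOGT had an open start in both libraries, against 42.1% of coding genes. MFNG had one in wild type alone, against 14.9%, and none of the 6 in knockout alone, against 1.26%. 4 of the 8 wild-type intervals were overlapped in knockout, or 50% (15.7 to 84.3) against 40.2% over the list, and 4 of 5 in the other direction, against 64.2%. The depth-scaled ratio of knockout to wild type was 0.848 (0.347 to 1.89) at POGLUT1 and 1.45 (0.758 to 2.72) at EOGT. At the neighbouring TMEM39A and TIMMDC1 starts it was 1.01 (0.464 to 2.05) and 1.07 (0.576 to 1.92). None of these 4 differs from 1 beyond counting error, and the median over 7035 shared starts was 1.13. Ratios past 2-fold lower and higher were seen at 0.853% and 4.38% of those starts.

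RBPJ in HEK293T and open chromatin in the ATAC libraries met at 5 of the 12 wild-type RBPJ intervals, against 31.6% of the whole list, and at 4 of the 8 wild-type ATAC intervals, against 45.0%. The summits of the 2 kinds of interval lay 3 bp apart at the POGLUT1 and TMEM39A starts, 26 bp apart at EOGT and at the DCXR starts, and 327 bp apart in the MFNG flank. The median over 13481 such overlaps was 126 bp. At LFNG and POFUT1, wild-type RBPJ and wild-type ATAC had no interval in common.

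The marker genes of T cells were mostly without an open start in the libraries labelled Jurkat. 2 of 18 had one in wild type (ZAP70 and RAG1) and 1 in knockout (RAG1). CD3D, CD3E, CD3G, CD2 and LCK had none in either, and neither did any of the 4 pan-leukocyte genes, PTPRC included. Of 8 kidney and epithelial genes, 3 had one in each library, and of 8 B cell and myeloid genes 1 did. The share over all coding genes was 56.9% in wild-type ATAC and 43.3% in knockout ATAC. The T cell identity of these libraries is thus not shown by its defining markers, and the bearing of this on the ATAC values was not tested. In wild-type RBPJ CUT&Tag, 4 of the 8 kidney and epithelial genes and 6 of the 18 T cell genes had a start interval. The share over all coding genes in that list was 54.0%.

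23 other genes of sugar addition to proteins or of donor sugar supply were taken as a list, and 22 were found in the annotation. Not all of them act on Notch: POFUT2 and B3GLCT act on thrombospondin repeats. A start interval was present in 19 of the 22 in wild-type RBPJ, 10 in FBXO42 knockout, 9 in the library titled RBPJ and 5 in the library titled RBPJK175R, against 54.0%, 39.5%, 37.8% and 28.5% of coding genes. Wild-type ATAC had 20 and knockout ATAC 12, where the background was 56.9% and 43.3%. 10 had one in wild-type RBPJ and not in knockout, a pattern of 18.3% of coding genes. POFUT2, which fucosylates thrombospondin repeats, was the 1 gene with the reverse, against 3.80%. LFNG and MFNG, by contrast, were on the knockout side under the 1 kb rule. LFNG was in both lists within 2 kb of the start, and MFNG was in neither at a −log10 q of at least 5. The other pathway genes were counted under the 1 kb rule alone, and the difference between the 2 gene groups was not tested. 4 genes had one in the library titled RBPJ alone and none in the library titled RBPJK175R alone, against 13.6% and 4.21%. In ATAC, 8 had one in wild type alone and none in knockout alone, against 14.9% and 1.26%.

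The 4 of these genes with the highest wild-type fold supply or use nucleotide sugars. GFUS, the last enzyme of GDP-fucose synthesis and so of the donor that POFUT1 uses, had a fold of 111 in wild-type RBPJ, 46.2 in knockout, 22.99 in the library titled RBPJ and 8.20 in the library titled RBPJK175R, with 316, 191, 112 and 24 reads. The tables give no strand for GFUS or B3GLCT, so their values are for an interval at either end of the gene. UGP2, which makes UDP-glucose, had folds of 12.1, 9.54, 14.3 and 6.87 in the same lists. B3GLCT, which glucosylates O-fucose on thrombospondin repeats, had 11.8 in wild type and 7.36 in the library titled RBPJ and no interval in the others. UGDH, which turns UDP-glucose into the precursor of UDP-xylose, had 10.96, 4.04 and 3.08 in the first 3 lists and none in the library titled RBPJK175R.

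Each member with a start interval was also matched to the coding gene whose ranks of start fold over the 6 lists were closest. The measure was the mean absolute difference in percentile within a list, with 0 for a list without an interval. PLAGL2 had a difference of 0 from POFUT1 because it shares the same intervals. COL18A1 was closest to MFNG at 0.635 percentile points, LOC107985876 to LFNG at 0.683, TWNK to EOGT at 4.48 and HEMK1 to POGLUT1 at 8.01. Each value is over 6 libraries and describes likeness of rank only.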

How the data were processed

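Peak lists of 4 RBPJ CUT&Tag and 2 ATAC-seq libraries were analysed, with 1 list per library and groups taken from the sample titles. Per the submitters' processing notes, Trim Galore, Bowtie2, MACS2 and deepTools were used with build hg38. The sources used here do not give versions, settings or the control library of each list. The authors' fold is a ratio of the summit pileup to the local background, each with 1 added. Beside it the deposited lists hold the −log10 of a p-value and of a q-value, and a score that was not used for any result. Each value is the authors' own for its peak and ranks peaks within 1 list only.

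Summit reads and background were recovered from the fold and −log10 p under a Poisson model, within 0.1%, for 100% of peaks in each list. The recovery was tested on simulated data. The deposited list of the library titled RBPJ needed a caller scaling of 0.812, and the others none. Ratios between libraries were scaled by the lowest background of each list and carry exact binomial 95% intervals. Intervals shared by at least 1 bp counted as overlapping, and 1 kb around a RefSeq transcription start counted as the start (either gene end for the 4195 of 20037 genes without one in the promoter table). Reads without molecular identifiers are not independent molecules. Named genes were the 6 members, the 4 pathway genes with the highest wild-type RBPJ fold, 1 closest gene per member and neighbours holding an interval. The members, the gene lists and the rules were chosen with earlier results of these data known. Alternatives were a 2 kb window, 2 kb around the start, a −log10 q of at least 5, an overlap of 50% of the shorter interval, and scaling to the median of shared starts. The 3 IgG libraries were not analysed here. Python 3.11.15, numpy 2.4.6, pandas 2.3.3, scipy 1.17.1 and matplotlib 3.10.9 were used.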

Additional observations from a re-analysis of the deposited data

How the results depend on the processing

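A window of 2 kb in place of 10 kb left 5 intervals in wild-type RBPJ, 11 in FBXO42 knockout, 7 in the library titled RBPJ, 4 in wild-type ATAC and 3 in knockout ATAC. Within 2 kb of the start, 2 genes rather than 1 had a start interval in the library titled RBPJ alone and 2 in wild-type ATAC alone. Peaks with a −log10 q of at least 5 left 6 intervals in wild-type RBPJ, 5 in knockout, 4 in the library titled RBPJ, 0 in the library titled RBPJK175R and 5 in wild-type ATAC. At that threshold, 3 genes kept an interval in the knockout window and 2 at the start, with 0 of either in the library titled RBPJK175R. In wild type against knockout RBPJ, 1 gene was then wild-type only, 1 knockout only and 1 in both, and 2 wild-type intervals were overlapped. In the library titled RBPJ against the library titled RBPJK175R, 2 genes were then in the first alone and 0 in both, and 1 interval was overlapped. In ATAC, 0 genes were then in wild type alone. The shares of coding genes under these alternatives are not given here, so the gene counts above cannot be set against a background. Requiring 50% of the shorter interval moved none of the 3 overlap counts by over 1.5 times. With the median of shared starts as the scale, all ratios of a comparison move by 1 factor, which was 1.73 for knockout over wild-type RBPJ, 1.07 for the library titled RBPJK175R over the library titled RBPJ and 0.884 for ATAC. 2 of 10 ratios, at POFUT1 and the DCXR starts, then left their first interval, which is narrower where reads are more.

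No paired analysis was possible because each group had 1 library and the labels carry no replicate numbers. Most member intervals rest on fewer than 30 summit reads, which limits every ratio printed.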
